A study of Mus musculus with 4 samples.

Results

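The genes of the focal adhesion and of the dystrophin complex, the structures that tie the actin of an aortic smooth muscle cell to the matrix around it, were followed in control cells and in cells with floxed TGF-beta receptor genes. The set holds 33 of the 32287 genes in the deposited matrices. Its genes were chosen by symbol for their place in these structures, with earlier results of these data known. By role they were grouped here into 7 sub-complexes. They are the talins, vinculin and kindlin (4 genes), the ILK, PINCH and parvin genes (4), adaptors and a kinase (6), zyxin with the Ena/VASP genes (3), actin crosslinkers (5), LIM scaffolds (3) and the dystrophin complex (8). All 33 were counted in every library and passed the expression filter, so none was left out.

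A focal adhesion is a plaque of proteins under integrin receptors. Talin and kindlin bind the integrin tail, vinculin and the ILK, PINCH and parvin trio link it to actin, paxillin-like adaptors gather kinases, and zyxin with Ena/VASP proteins repairs and lengthens actin filaments under tension. The dystrophin complex is a separate link: dystrophin or its relative utrophin binds actin inside the cell, dystroglycan spans the membrane and holds laminin outside, and sarcoglycans and sarcospan steady the assembly. In smooth muscle both structures sit at the cell membrane.

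Single-cell RNA sequencing with 3′ chemistry was done on GFP-positive smooth muscle cells sorted from the arch and ascending part of the aorta of 12-week-old C57BL/6J mice, in 2 control libraries (WT, Myh11-CreERT2 with mT/mG, called GFPiSMC) and 2 libraries with floxed alleles (KO, Tgfbr1f/f and Tgfbr2f/f with the same 2 transgenes, called Tgfbr1/2iSMCKO). Both genotypes therefore carried the same tamoxifen-inducible Cre, driven by the smooth muscle myosin promoter, and the same mT/mG reporter, which turns from tdTomato to eGFP on recombination. All mice received tamoxifen for 5 days, 1 mg per day at 4 weeks or 2 mg per day at 11 weeks of age. Which library had which course is not stated, nor how many mice stand behind a library, so the effect of the course cannot be told apart from that of the genotype, and p-values measure the spread between these samples only.

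Cells kept were 2429 for WT 1, 3265 for WT 2, 4252 for KO 1 and 3522 for KO 2, with 35255748 to 59203071 UMIs per library and medians of 13898 to 15383 UMIs per cell. Pairs of libraries shared 2 to 5 cell barcodes. Tgfbr1 had 80.8 and 82.3 CPM in the control libraries, against 73.3 and 76.1 CPM in KO, and Tgfbr2 51.6 and 45.1 against 46.5 and 47.3 CPM (adjusted p = 0.203 and 0.752). The floxed exons are not named in the labels, and 3′ tags check nothing about a deletion upstream of them. Myh11, whose promoter drives Cre, rose by 0.42 and eGFP by 0.43 on the log2 scale, and tdTomato had 0.0287 and 0.142 CPM in the control libraries, against 9.97 and 6.75 CPM in KO. Smooth muscle markers summed to 44540 to 51311 CPM in every library. Endothelial markers, 12 in number, had sums of 55.7 and 56.5 CPM in the control libraries, against 48.4 and 46.4 CPM in KO. Erg was the top gene of each sum, at 27.2 (WT 1), 28.1 (WT 2), 15.4 (KO 1) and 16.8 CPM (KO 2). Cdh5, Tek, Emcn and Sox17 were at 0 in both WT libraries, whereas no endothelial marker was at 0 in either KO library. Cdh5 was found in 7 of the 4252 cells of KO 1 and 7 of the 3522 cells of KO 2. The lower KO sum thus hides markers seen in KO only. The 10 macrophage markers had sums of 0.794 and 0.442 CPM in the control libraries, against 10.2 CPM in KO 1 and 0.454 CPM in KO 2. The summed level of 12 immediate early and dissociation genes moved with genotype, from 2681 and 3082 CPM in the WT libraries to 1975 and 1995 CPM, and its part in the differences below was not tested.

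KO smooth muscle cells held less RNA for 5 of the 8 dystrophin complex genes and for 8 of the 25 adhesion genes, while the talin, vinculin and kindlin genes did not pass the test. Of the 33 genes 13 fell, or 39.4%, beside 11.1% of the 14474 tested genes, and 2 rose, or 6.06%, beside 9.17%. The other 18 did not pass. This set and the other lists below were chosen with earlier results of these data known. Mean levels began at 10.5 CPM in the set and at 0.108 CPM over all tested genes. The shares are therefore set side by side as a description, with no test. The number of rises was 4 with DESeq2, with genes of at least 20 CPM only, with the stricter cell filter and without cells holding markers of other types, and 5 without an expression filter. Falls included Enah, an actin filament elongator, at 50.8% of its WT mean, Pdlim7, a LIM scaffold, at 55.9%, the crosslinker Actn1 at 62.5%, the dystrophin relative Utrn at 71.2% and the dystroglycan gene Dag1 at 72.6%. The rises were Csrp1, a LIM protein on actin filaments, at 162% and the sarcoglycan gene Sgca at 134%.

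The changes were small in size. No called member changed 2-fold, and 11 of the 15 changed by less than 1.5-fold. The median log2 difference was −0.12 over the 33 genes and −0.004 over all tested genes. The genotypes did not overlap for 25 of the 33 genes, 16 lower and 9 higher in KO, beside 63.5% of all tested genes, so that non-overlap alone says little of a gene here. For each of the 18 genes that did not pass, the 95% interval of the log2 difference lay within ±0.5, between −0.47 and 0.44 at its widest. Summed over the 33 genes the level was 14446 and 14191 CPM in the WT libraries and 13905 and 14104 CPM in the KO libraries, or 97.8% of WT, with the higher values of Csrp1 and of Flna, which did not pass, offsetting many lower ones. A summed CPM does not tell fewer cells with a transcript from less RNA per cell. The shares of cells given below do not separate them either, since a share also falls when each cell holds less RNA.

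**Figure D1:**
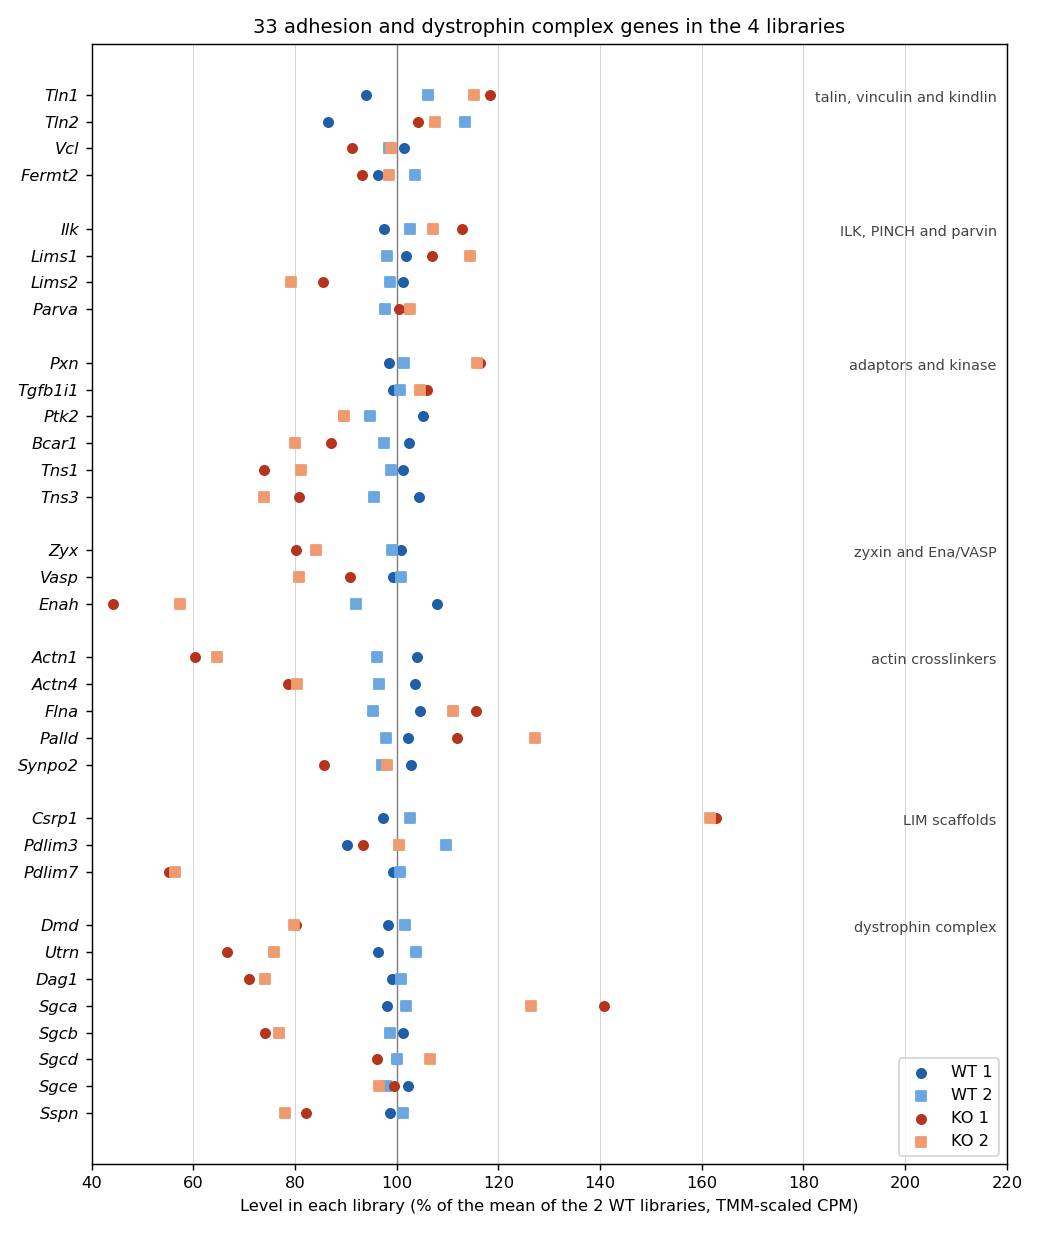
Level of each gene in each of the 4 libraries, as a percent of the mean of the 2 WT libraries (TMM-scaled CPM), with WT in blue, KO in red and the genes grouped by sub-complex. Enah, Actn1, Pdlim7 and most dystrophin complex genes have both KO libraries to the left of both WT libraries, and Csrp1 and Sgca have them to the right.

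**Figure D2:**
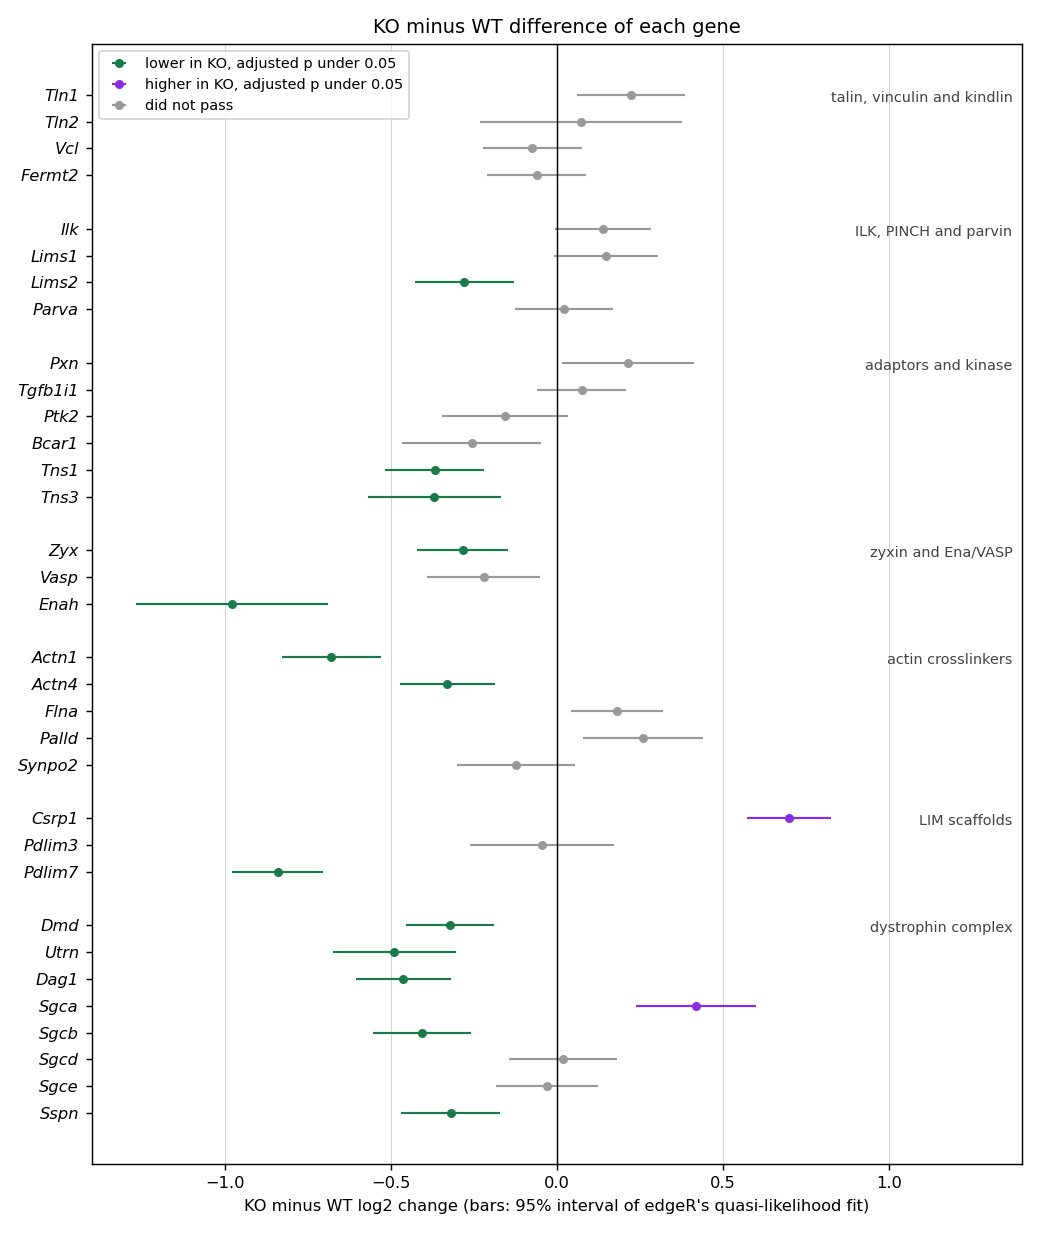
KO minus WT log2 difference of each gene with its 95% interval from edgeR's quasi-likelihood fit over 4 libraries. The 13 genes in green and the 2 in purple passed an adjusted p of 0.05, and the 18 in grey did not.

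Promoter sequence was read for these genes because serum response factor (SRF), the factor that drives many actin and adhesion genes in smooth muscle, binds an A/T-rich element, the CArG box. RefSeq windows on GRCm38.p6, from 250 bases before to 50 bases after a start site, were matched for 26 of the 33 genes (36 windows). A CArG box on either strand was found in 3 of these genes, Dmd, Vcl and Fermt2, or 11.5%, beside 1.81% of the 27025 genes with a window. The 250 bases before the start site of each are given 5′ to 3′ with the CArG box in capitals, from chrX:82948620-82948869 on the plus strand for Dmd, chr14:20929148-20929397 on the plus strand for Vcl and chr14:45530066-45530315 on the minus strand for Fermt2.
Dmd: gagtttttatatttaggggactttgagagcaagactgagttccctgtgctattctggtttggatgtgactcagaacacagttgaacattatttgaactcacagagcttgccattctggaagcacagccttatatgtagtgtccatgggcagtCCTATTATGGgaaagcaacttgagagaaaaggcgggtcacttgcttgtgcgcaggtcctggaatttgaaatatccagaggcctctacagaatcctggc
Vcl: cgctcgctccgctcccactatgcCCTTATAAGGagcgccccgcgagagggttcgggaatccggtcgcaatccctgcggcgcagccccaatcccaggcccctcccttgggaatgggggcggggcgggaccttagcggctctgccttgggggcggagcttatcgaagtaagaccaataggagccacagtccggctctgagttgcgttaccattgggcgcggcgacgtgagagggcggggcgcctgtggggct
Fermt2: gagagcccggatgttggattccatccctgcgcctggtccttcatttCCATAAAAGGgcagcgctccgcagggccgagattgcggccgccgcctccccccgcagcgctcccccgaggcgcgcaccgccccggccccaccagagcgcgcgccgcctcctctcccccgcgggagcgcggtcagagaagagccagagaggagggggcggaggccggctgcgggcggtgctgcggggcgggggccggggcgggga
The box begins at −98 in Dmd, −227 in Vcl and −204 in Fermt2, counted from the start site. Dmd fell in KO cells, and Vcl and Fermt2 did not pass the test. A second Dmd window, at a start site inside the gene, held no box. Of the other motifs searched on both strands, with overlaps between motifs left in, TGANTCA (bound by AP-1) was in 5 of the 26 genes beside 8.97% of all genes, GGAATG (bound by TEAD factors) in 7 beside 16.6%, CAGACA (bound by SMADs) in 3 beside 23.6%, and GTCTAGAC, the SMAD palindrome, in 0 beside 0.248%. These matches describe letters in a window and are not binding sites.

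None of the 4 talin, vinculin and kindlin genes passed edgeR's test, 1 of them with an unadjusted p under 0.05 and 1 called by DESeq2. Talin 1 (Tln1), which switches integrins on and links them to actin, had 675 and 763 CPM in the control libraries, against 851 and 828 CPM in KO, both KO libraries above both WT libraries (log2 difference 0.22, SE 0.07, adjusted p = 0.0600). It was called higher under 5 of 14 alternatives, among them DESeq2 (adjusted p = 0.0343) and edgeR with genes of at least 20 CPM only (0.0456). Its log2 difference was 0.31 without WT 2 and 0.13 without WT 1. Talin 2 (Tln2), the less abundant talin, had 8.80 and 11.5 CPM in the control libraries, against 10.6 and 10.9 CPM in KO (log2 difference 0.07, SE 0.13, adjusted p = 0.738). Its KO libraries lay between the WT libraries. Vinculin (Vcl), which binds stretched talin, had 434 and 421 CPM in the control libraries, against 389 and 422 CPM in KO (log2 difference −0.07, SE 0.06, adjusted p = 0.461). Kindlin-2 (Fermt2), the partner of talin on the integrin tail, had 498 and 535 CPM in the control libraries, against 481 and 509 CPM in KO (log2 difference −0.06, SE 0.06, adjusted p = 0.546). For Vcl and Fermt2 the genotypes overlapped as well. The 4 genes together summed to 1616 and 1730.3 CPM in the control libraries, against 1732 and 1771 CPM in KO, or 105% of WT. Tln1 lies on chromosome 4, 3.791 Mb from the floxed gene Tgfbr1.

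Of the 4 ILK, PINCH and parvin genes Lims2 passed the test. Lims2, which encodes the adaptor PINCH2, fell from 284 and 277 CPM in the WT libraries to 239.7 and 222 CPM in the KO libraries (log2 difference −0.28, SE 0.06, adjusted p = 0.0196). Its call was lost without WT 1 (adjusted p = 0.101), WT 2 (0.0565) or KO 2 (0.0702). Its relative Lims1, encoding PINCH1, had 78.1 and 75.3 CPM in the control libraries, against 82.0 and 87.7 CPM in KO, higher in both KO libraries without passing (log2 difference 0.15, SE 0.07, adjusted p = 0.171). The PINCH genes thus lay on opposite sides of their WT levels. Ilk, the pseudokinase scaffold that both PINCH proteins bind, had 355 and 374 CPM in the control libraries, against 411 and 391 CPM in KO (log2 difference 0.14, SE 0.06, adjusted p = 0.162). Parva, the actin-binding partner of ILK, had 95.2 and 91.0 CPM in the control libraries, against 93.5 and 95.5 CPM in KO (log2 difference 0.02, SE 0.06, adjusted p = 0.841), with the genotypes overlapping. The sum of the 4 genes was 812 and 817 CPM in the control libraries, against 826 and 796 CPM in KO.

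Among the adaptors the tensins fell. Tensin 1 (Tns1), which binds integrin tails and actin in mature adhesions, fell from 938 and 916 CPM to 684 and 752 CPM (log2 difference −0.37, SE 0.06, adjusted p = 0.00578). Tensin 3 (Tns3), a relative at much lower counts, fell from 25.8 and 23.6 CPM to 19.9 and 18.2 CPM (log2 difference −0.37, SE 0.09, adjusted p = 0.0203), and lost the call without WT 1 (adjusted p = 0.107) or KO 2 (0.0764). Both tensins were at 77% of their WT means and neither overlapped between genotypes. Paxillin (Pxn), a docking adaptor, had 11.4 and 11.7 CPM in the control libraries, against 13.5 and 13.4 CPM in KO (log2 difference 0.21, SE 0.09, adjusted p = 0.122). Its relative Tgfb1i1, a gene symbol that refers to induction by TGF-beta, encodes Hic-5. Tgfb1i1 had 332 and 336 CPM in the control libraries, against 354 and 349 CPM in KO (log2 difference 0.07, SE 0.06, adjusted p = 0.407). Neither paxillin family gene passed, although both KO libraries were above both WT libraries for each. The focal adhesion kinase gene Ptk2 had 25.2 and 22.7 CPM in the control libraries, against 21.5 and 21.5 CPM in KO (log2 difference −0.16, SE 0.08, adjusted p = 0.221), and Bcar1, the stretch-sensing substrate p130Cas, 15.4 and 14.7 CPM against 13.1 and 12.0 CPM (log2 difference −0.26, SE 0.09, adjusted p = 0.0847). Ptk2 and Bcar1 were lower in both KO libraries without passing. Summed over the 6 genes the level was 85.0% of WT.

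Zyxin and Enah fell, and this sub-complex had the lowest KO to WT ratio of the 7 sums. Enah, known as Mena, which keeps actin filaments growing at their tips, fell from 457 and 390.0 CPM in the WT libraries to 187 and 243 CPM (log2 difference −0.98, SE 0.13, adjusted p = 0.00139). The means went from 424 ± 47.7 to 215 ± 39.5 CPM (SD, n = 2 each), a difference larger than the gap between replicates, which was wide for this gene. Zyxin (Zyx), which moves to strained actin filaments and recruits Ena/VASP proteins there, fell from 456 and 448 CPM to 363 and 380.0 CPM (log2 difference −0.28, SE 0.06, adjusted p = 0.0124), a call lost without WT 1 (adjusted p = 0.073). Vasp, the relative of Enah, had 155 and 158 CPM in the control libraries, against 142 and 127 CPM in KO, lower in both KO libraries without passing (log2 difference −0.22, SE 0.07, adjusted p = 0.0722). Without KO 1 it was called lower (log2 difference −0.31, adjusted p = 0.0245). The sum of the 3 genes was 1069 and 996 CPM against 693 and 749.6 CPM, or 69.8% of WT, a description with no test. Enah lies on chromosome 1 from 181896384 to 182019990 (GRCm38, GENCODE M21), and its UMIs are not split by isoform.

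Both alpha-actinins fell, and the larger crosslinker Flna did not pass. Actn1, which crosslinks actin at plaques and dense bodies, fell from 1482 and 1370.1 CPM to 860.5 and 921 CPM (log2 difference −0.68, SE 0.06, adjusted p = 0.000332). Actn4, the second non-muscle alpha-actinin, fell from 597 and 556 CPM to 453 and 464 CPM (log2 difference −0.33, SE 0.06, adjusted p = 0.00776), with the call lost without WT 1 (adjusted p = 0.0587). In neither gene did the genotypes overlap. Filamin A (Flna), which crosslinks actin into networks and binds integrin tails, had 3333 and 3039 CPM in the control libraries, against 3685 and 3539.7 CPM in KO (log2 difference 0.18, SE 0.06, adjusted p = 0.0700). Palladin (Palld), a scaffold of alpha-actinin, had 104 and 99.5 CPM in the control libraries, against 114 and 129 CPM in KO (log2 difference 0.26, SE 0.08, adjusted p = 0.0526). Palld stood near the threshold and was called higher under 7 of 14 alternatives, among them DESeq2 (adjusted p = 0.0277), the replicate block (0.0492) and the fit without KO 1 (0.0161), and Flna under 3. Synpo2, an actin-bundling partner of alpha-actinin and filamin, had 588 and 556 CPM in the control libraries, against 489.8 and 561 CPM in KO, with overlap (log2 difference −0.12, SE 0.08, adjusted p = 0.301). The sum of the 5 genes was 95.7% of WT. Within it Flna made up 54.3% in WT and 64.4% in KO. Actn1 lies on chromosome 12 from 80167547 to 80260371.

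The 3 LIM scaffold genes went different ways. Pdlim7, known as Enigma, which joins actin to kinases through PDZ and LIM domains, fell from 349.7 and 354 CPM to 194 and 199 CPM (log2 difference −0.84, SE 0.06, adjusted p = 7.47e-05). Csrp1, a LIM-only protein that binds alpha-actinin and zyxin, rose from 1282 and 1353 CPM to 2145 and 2129.8 CPM (log2 difference 0.70, SE 0.05, adjusted p = 0.000125). These were the smallest p-values among the 33 genes, and in both the replicates lay close together. Pdlim3, known as ALP, another PDZ and LIM protein on alpha-actinin, had 414 and 503 CPM in the control libraries, against 428 and 461 CPM in KO (log2 difference −0.05, SE 0.09, adjusted p = 0.771), both KO libraries between the WT libraries. The sum of the 3 was 131% of WT, with Csrp1 making up 61.9% of it in WT and 76.9% in KO. Pdlim7 lies on chromosome 13 from 55495795 to 55513676 and Csrp1 on chromosome 1 from 135720061 to 135752232.

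Of the 8 dystrophin complex genes 5 fell (62.5%, beside 11.1% of all tested genes), 1 rose (12.5%, beside 9.17%) and 2 did not pass. Dystrophin (Dmd), the actin link of the complex, fell from 504 and 522 CPM to 411 and 410.0 CPM (log2 difference −0.32, SE 0.06, adjusted p = 0.00635). Utrophin (Utrn), its relative with the same role, fell from 274 and 295 CPM to 189.6 and 216 CPM (log2 difference −0.49, SE 0.08, adjusted p = 0.00425). Dag1, which encodes both the laminin-binding and the membrane-spanning part of dystroglycan, fell from 204 and 208 CPM to 146 and 153 CPM (log2 difference −0.46, SE 0.06, adjusted p = 0.00164). The actin link and the membrane core therefore had less RNA in both KO libraries than in either WT library. Beta-sarcoglycan (Sgcb), a core subunit of the sarcoglycan group, fell from 109 and 107 CPM to 80.0 and 83.1 CPM (log2 difference −0.41, SE 0.06, adjusted p = 0.00354). Sarcospan (Sspn), a tetraspan protein bound to the sarcoglycans, fell from 107 and 110.0 CPM to 89.2 and 84.8 CPM (log2 difference −0.32, SE 0.06, adjusted p = 0.0108), a call lost without WT 2 (adjusted p = 0.0549).

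The sarcoglycan genes were not moved as one. Alpha-sarcoglycan (Sgca), the subunit typical of striated muscle, rose from 41.2 and 42.8 CPM to 59.1 and 53.1 CPM (log2 difference 0.42, SE 0.08, adjusted p = 0.00754). Epsilon-sarcoglycan (Sgce), its relative and usual counterpart in smooth muscle, had 62.3 and 59.7 CPM in the control libraries, against 60.6 and 58.9 CPM in KO (log2 difference −0.03, SE 0.07, adjusted p = 0.794). Delta-sarcoglycan (Sgcd), a core subunit, had 148 and 148 CPM in the control libraries, against 142 and 158 CPM in KO (log2 difference 0.02, SE 0.07, adjusted p = 0.881). For Sgce and Sgcd the genotypes overlapped, and their 95% intervals reached from −0.18 to 0.12 and from −0.14 to 0.18. The 8 genes summed to 1451 and 1493 CPM in the control libraries, against 1179 and 1217 CPM in KO, or 81.4% of WT. Dmd covers chromosome X from 82948870 to 85206141, Utrn chromosome 10 from 12382188 to 12869365, and Dag1 chromosome 9 from 108204634 to 108263958, 7.82 Mb from the floxed gene Tgfbr2. UMIs at the 3′ end of Dmd and Utrn do not split their long and short isoforms.

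Related genes within a library were compared as ratios, which any scaling of the whole library leaves unchanged. UMIs from 3′ ends are one tag per molecule and were not divided by length, so the ratios compare genotypes rather than the 2 genes. Of 9 pairs, 7 had ratios that did not overlap between genotypes. Among single genes the levels of 63.5% did not overlap, but no such share was computed for ratios of other gene pairs. Pdlim3/Pdlim7 was 1.18 and 1.42 in the control libraries, against 2.20 and 2.32 in the KO libraries (log2 difference 0.80, SD of the WT and KO libraries 0.19 and 0.05). Vasp/Enah was 0.34 and 0.405 in the control libraries, against 0.761 and 0.521 in the KO libraries (0.76, SD 0.18 and 0.39). In both pairs the second gene fell and the first did not pass. Sgca/Sgce was 0.661 and 0.716 in the control libraries, against 0.975 and 0.902 in the KO libraries (0.45). Lims1/Lims2 was 0.275 and 0.272 in the control libraries, against 0.342 and 0.394 in the KO libraries (0.43). Actn1/Actn4 was 2.48 and 2.46 in the control libraries, against 1.90 and 1.98 in the KO libraries (−0.35, SD 0.01 and 0.05), so Actn1 fell by more than Actn4 in both KO libraries. The log2 differences were 0.17 for Dmd/Utrn and 0.14 for Pxn/Tgfb1i1. Tln1/Tln2 (0.13) and Tns1/Tns3 (0.002) overlapped. With 2 against 2 libraries the exact two-sided permutation test cannot go below p = 0.333, the value of each of the 7 pairs (adjusted p = 0.429 over 9), so none could pass.

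**Figure D3:**
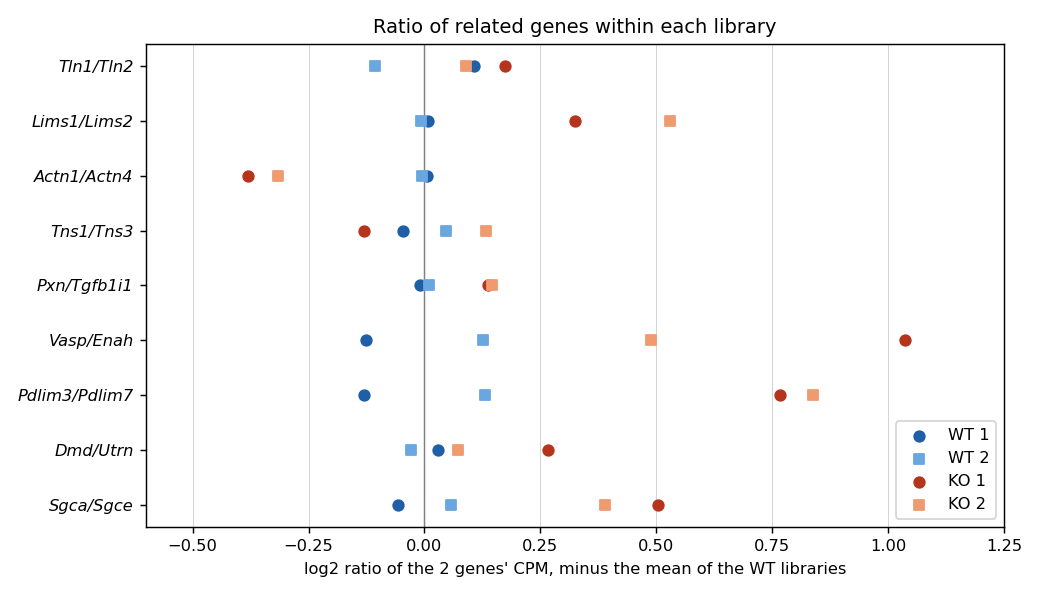
log2 ratio of the CPM of 2 related genes within each library, less the mean of the WT libraries, for 9 pairs. Pdlim3/Pdlim7, Vasp/Enah, Sgca/Sgce and Lims1/Lims2 lie to the right of 0 in both KO libraries, Actn1/Actn4 to the left, and Tns1/Tns3 and Tln1/Tln2 overlap.

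The shares of cells with a transcript moved the same way as the levels for the genes that changed most. Every cell was thinned to 5000 UMIs, which left 2232 and 3103 WT cells and 4102 and 3353 KO cells and dropped 150 to 197 shallower cells per library. Enah was then found in 83.0% and 78.1% of the WT cells and 56.2% and 63.9% of the KO cells (95.1%, 94.1%, 84.3% and 87.3% before thinning). Pdlim7 was found in 80.7% and 82.5% of the WT cells and 60.0% and 60.4% of the KO cells (94.3%, 95.7%, 86.3% and 86.5% before thinning). In thinned cells these 2 genes had the widest gaps in share among the 33. Before thinning the widest was that of Sgcb, at 73.2% in WT and 63.7% in KO as means of the libraries. Utrn was found in 69.8% and 71.6% of the WT cells and 57.4% and 61.3% of the KO cells, and Dag1 in 60.8% and 61.4% of the WT cells and 51.1% and 51.5% of the KO cells. Before thinning the shares were 89.3%, 92.4%, 83.4% and 87.1% for Utrn and 86.5%, 88.7%, 81.5% and 82.2% for Dag1. Sgca went the other way, with 17.6% and 18.7% of the WT cells and 24.2% and 22.2% of the KO cells (40.5%, 42.8%, 49.8% and 48.9% before thinning).

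For Actn1 and Csrp1 the shares stood near their ceiling at this depth, so the mean UMIs per cell show more. Actn1 was found in 99.6% and 99.8% of the WT cells and 97.0% and 97.1% of the KO cells, while its mean fell from 7.31 and 6.67 to 4.23 and 4.56 UMIs per thinned cell. Csrp1 was found in 98.4% and 98.6% of the WT cells and 99.4% and 99.6% of the KO cells, with means of 6.49 and 6.68 against 10.8 and 11.0 UMIs. With cells thinned to 2500 UMIs instead, the mean share of Actn1 was 95.2% in WT and 87.4% in KO, and that of Csrp1 91.8% and 97.2%. No share can pass with 2 libraries against 2, since the exact permutation test cannot go below p = 0.333 (adjusted p = 0.44 over the 33). As a background, the endothelial gene Pecam1 was in 6.50%, 7.15%, 4.44% and 3.85% of cells thinned to 5000 UMIs. Tln2, Pxn and Bcar1, found in 3.99% to 7.39% of thinned cells, stood near that level, and nothing is read from their shares.

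**Figure D4:**
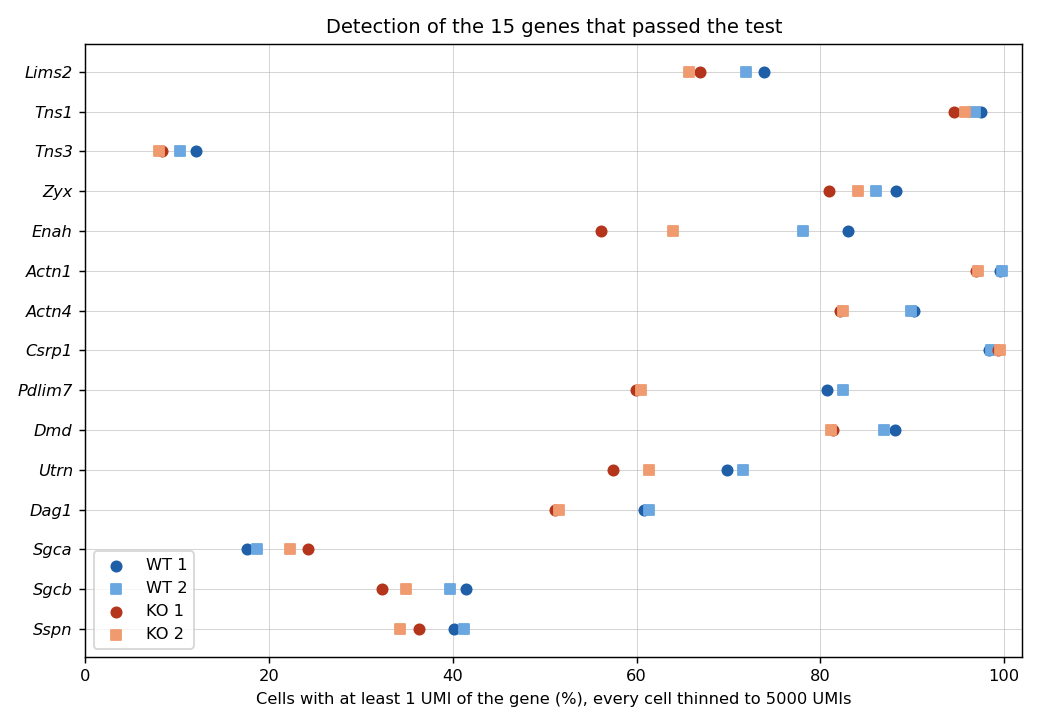
Share of cells with at least 1 UMI in each library for the 15 genes that passed the test, every cell thinned to 5000 UMIs. Enah lies at 83.0% and 78.1% in WT and 56.2% and 63.9% in KO and Pdlim7 at 80.7% and 82.5% against 60.0% and 60.4%, while Actn1 and Csrp1 lie at 97.0% or more in every library.

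Most thinned KO cells, rather than a small tail of them, lay on the side of the change for 3 of the sub-complexes. The WT median used was the mean of the medians of the 2 WT libraries. Of the thinned cells of a library 5.73% to 15.7% lay exactly at it for these 3 sums, and were not counted as below. Zyxin and Ena/VASP UMIs summed per thinned cell lay below this median in 42.9% and 47.3% of the control cells, against 73.0% and 67.2% of the KO cells. Before thinning 46.3%, 54.2%, 85.2% and 78.4% of cells lay below it. Dystrophin complex UMIs lay below it in 47.4% and 45.4% of the control cells, against 63.3% and 59.6% of the KO cells (51.0%, 49.0%, 71.8% and 68.4% before thinning). LIM scaffold UMIs, mostly from Csrp1, lay below it in 46.2% and 41.1% of the control cells, against 24.5% and 22.6% of the KO cells (54.1%, 45.5%, 24.95% and 23.3% before thinning). The KO curves have a single main peak moved left for the first and second of these sums and right for the third. Adaptor and kinase UMIs lay below their WT median in 39.3% and 40.3% of the thinned control cells, against 54.8% and 48.4% of the KO cells. Before thinning the shares were 49.5%, 50.8%, 70.4% and 63.6%. A thinned cell held UMIs of 3.92 and 3.93 of the 8 dystrophin complex genes on average in WT and of 3.55 and 3.61 in KO.

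**Figure D5:**
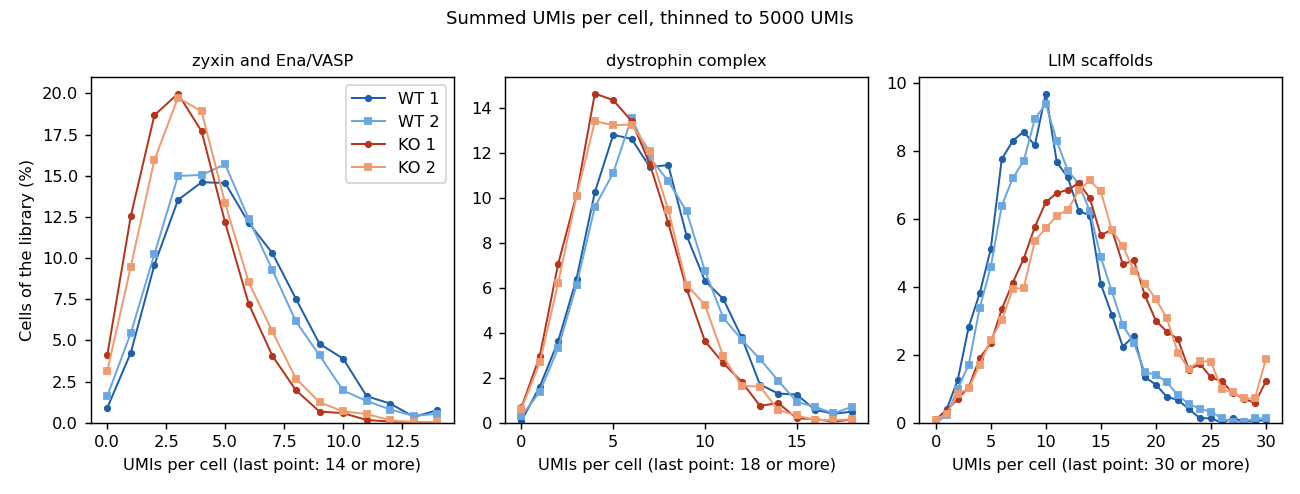
Summed UMIs per cell of zyxin and Ena/VASP, the dystrophin complex and the LIM scaffolds, as a percent of the cells of each library, every cell thinned to 5000 UMIs and the last point holding all higher values. Below the WT median lie 73.0% and 67.2% of KO cells for zyxin and Ena/VASP, 63.3% and 59.6% for the dystrophin complex and 24.5% and 22.6% for the LIM scaffolds.

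Cells of one library varied more in some of these genes than counting allows. The coefficient of variation left after Poisson error, at 5000 UMIs per cell, was 90.9%, 85.3%, 83.1% and 98.3% for Palld in WT 1, WT 2, KO 1 and KO 2. For Enah it was 56.6%, 57.7%, 52.3% and 58.6%. Fermt2 was among the evenest, at 19.2%, 22.7%, 22.5% and 16.4%. The spread between cells of Enah and Fermt2 overlapped between genotypes, whereas that of Actn4 was 41.7% and 37.6% in WT and 55.1% and 54.1% in KO. A wider spread in both KO libraries was not particular to Actn4. Actn1, Pdlim7 and Utrn had one too, while Csrp1 and Parva had a narrower spread in both KO libraries. The genes named here were picked after their values were seen, and no count over all members was made.

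Changes went both ways among 41 other plaque genes: 12 were lower (29.3%, beside 11.1% of all tested genes), 9 were higher (22.0%, beside 9.17%) and 20 missed the threshold, at a median log2 difference of −0.015. The 3 falls with the smallest p were Csrp2, a relative of Csrp1, from 3963 and 4215 CPM to 1403 and 1351 CPM (log2 difference −1.57, SE 0.06, adjusted p = 2.98e-06), Pdlim1, a relative of Pdlim7, by 1.49 (SE 0.06) on the log2 scale, and Fblim1, the migfilin that joins filamin to kindlin, by 1.23 (SE 0.06). Csrp1 and Csrp2 thus passed in opposite directions. The rises with the smallest p were Ppp1r12a, the targeting subunit of myosin phosphatase, by 0.55 (SE 0.06), Limd1, a zyxin family protein, by 0.66 (SE 0.08), and the kinase gene Fyn by 0.88 (SE 0.12), at under 10 CPM in every library. Adjusted p-values of these 6 ran from 2.98e-06 to 0.00179.

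Of 20 other dystrophin complex genes 18 were tested. By edgeR 4 of them fell, or 22.2% beside 11.1% of all tested genes, and 0 rose, beside 9.17%. Agrn, a matrix ligand of dystroglycan, fell by 0.76 (SE 0.09, adjusted p = 0.00106) and Sntb1, a syntrophin, by 0.60 (SE 0.10, adjusted p = 0.00429) on the log2 scale. Dtna, alpha-dystrobrevin, named after its value was seen, fell by 0.43 (adjusted p = 0.0207). Of the 18 genes 8 had an unadjusted p under 0.05, and DESeq2 called 1 higher, Lama2, the laminin chain that dystroglycan binds. Lama2 had 28.3 and 33.7 CPM in the control libraries, against 36.0 and 44.4 CPM in KO (log2 difference 0.37, SE 0.12, adjusted p = 0.0668), with an adjusted p of 0.0347 by DESeq2 and 0.00712 under the replicate block, and was also picked after its values were seen. Nos1 had 1 UMI in KO 2 and none elsewhere, and Sgcz none in any library, so neither was tested.

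None of the 8 genes of SRF and its partners passed edgeR's test. Srf had 19.2 and 18.4 CPM in the control libraries, against 17.6 and 22.2 CPM in KO (log2 difference 0.09, SE 0.11, adjusted p = 0.640), and Myocd, its smooth muscle cofactor, 82.1 and 67.4 CPM against 70.8 and 101 CPM (log2 difference 0.20, SE 0.16, adjusted p = 0.419). KO 2 stood above the other libraries for both, and without KO 1 Myocd was called higher (log2 difference 0.43, adjusted p = 0.0268). The other log2 differences were 0.07 for Mrtfa and −0.07 for Mrtfb, the actin-sensing cofactors, 0.04 for Yap1 and −0.19 for Wwtr1 (TAZ), the Hippo effectors, and −0.28 for Tead1 and −0.21 for Tead3, their DNA-binding partners. Tead1 came nearest to the threshold (adjusted p = 0.0543) and was called lower by DESeq2 (0.0372), under the replicate block (0.0439) and without WT 2 (0.0499). Of the 8 genes edgeR called 0, with 3 at an unadjusted p under 0.05, and DESeq2 called 1.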

How the data were processed

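Single-cell libraries of 2 WT and 2 KO samples were used. The deposited matrices hold raw UMI counts per gene and barcode, written by Cell Ranger, version 5.0.1, per the headers. The build is mm10, and Seurat 4.0 is named without its role, per the submitters' processing notes. A cell was kept when it had 1000 UMIs and 500 genes or more and no more than 10% mitochondrial UMIs. No doublet was removed. Scrublet's automatic threshold marked 23, 7, 1 and 4 cells in WT 1, WT 2, KO 1 and KO 2 (0.947%, 0.214%, 0.0235% and 0.114%), too few to count as a working call.

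Counts were summed per library and tested with edgeR 4.0.16 (R 4.3.3, quasi-likelihood, filterByExpr, TMM) over 4 libraries, and p-values were adjusted over 14474 genes (Benjamini-Hochberg, threshold 0.05). Adjusted p-values are from this edgeR test unless another tool is named. CPM are TMM-scaled. Replicates differed beyond Poisson error (biological coefficient of variation 7.84%, chi-square per degree of freedom 13.3 in WT and 15.0 in KO). The scripts were tested on simulated counts. Alternatives were DESeq2 1.42.0, limma-voom (limma 3.58.1), other scalings and filters, other cell sets, a replicate block and leaving out each library. Thinning drew UMIs without replacement (seed 1).

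The members, the lists and the pairs were chosen with earlier results of these data known. Named genes were all 33 members, the label checks, SRF and its cofactors, and from each other list the 3 called genes with the smallest p in each direction. A result for 1 gene under this rule is not reported here. Marker lists for fibroblasts (653 to 697 CPM, mostly Gsn), Schwann cells (391 to 541 CPM, mostly Ncam1), pericytes (331 to 512 CPM), lymphocytes (at most 0.199 CPM), cardiac or skeletal muscle (9.03 to 11.2 CPM), mesothelium (at most 0.676 CPM) and red cells (at most 0.227 CPM) were also summed per library.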

Additional observations from a re-analysis of the deposited data

How the results depend on the processing

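The 13 falls among the 33 genes stayed between 9 and 14 over 14 alternatives, with 9 when WT 1 was left out, 11 without WT 2 or KO 2 and 14 without KO 1 or without an expression filter. The 2 rises became 4 with DESeq2, with genes of at least 20 CPM only, with the stricter cell filter and without cells holding markers of other types, and 5 without an expression filter, with 2 to 3 over the left-out libraries. Of the 15 called genes 10 were called under every alternative (Tns1, Enah, Actn1, Csrp1, Pdlim7, Dmd, Utrn, Dag1, Sgca and Sgcb), and no direction of a called gene turned. The other dystrophin complex genes had 0 rises with edgeR, and 1, Lama2, with DESeq2, without an expression filter, under the replicate block, without WT 2 and without KO 1 (0 to 1 over the left-out libraries). The log2 ratio of the summed level of the 33 genes was −0.03 and became −0.0033 with plain library totals. Over all genes the calls were 1611 lower and 1327 higher, but 1039 and 805 without WT 1 and 918 and 625 among genes of at least 20 CPM. The cause of these shifts was not tested beyond the smaller number of genes or samples each leaves.

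The replicate numbers were taken not to pair the samples, which is an assumption. The labels give no shared animal or batch, and the deviations of WT 1 and KO 1 correlated at 0.0437. With the number as a block, 13 of the 33 genes were lower and 3 higher, and over all genes 1751 were lower and 1523 higher. Alternatives for the other lists and for all genes were added after seeing the data. Where a library was left out, the lone library of its genotype was assumed to vary like those of the other. With 2 libraries a genotype no exact test can pass, and every call rests on the spread that edgeR shares across genes.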
